A study of Mus musculus with 38 samples.

Results

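A set of 10 genes that mark T cells and cytotoxic lymphocytes was followed on 38 arrays of epididymal fat stromal vascular cells (SVCs), which are the cells of fat tissue other than the fat cells themselves. The 10 genes were Cd3e, Cd3d, Cd3g, Cd4, Cd8a, Cd8b1, Lck, Foxp3, Gzmb and Nkg7, and they were found by their gene name among the non-control features of the array, where they had 13 of 40628 probes. All mice were C57BL/6J, weaned at 3 to 4 weeks of age and divided into 5 groups of 30 animals. The LFC group ate a diet with 10% of calories from fat, and the HFC group ate a high fat, high sucrose diet (HFHSD) with 60% of calories from fat. The HF5, HF20 and HF75 groups ate HFHSD with 5, 20 or 75 µg of KAL-1, an ethano-botanical formulation. Arrays of LFC and HFC covered 10 time points (days 6, 10 and 14 and weeks 0, 3, 6, 9, 12, 15 and 18, written D6 to W18), while those of the KAL-1 doses covered the 6 from W3 on, always with 1 array. With 1 array for each diet and time point, the time points served as the replicates of a diet. The labels say that 5 animals of a group were killed every 3 weeks but not whether their RNA was pooled, so it is not known how many animals an array stands for.

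T cells recognise antigen through the T cell receptor, which signals through the CD3 chains (Cd3e, Cd3d, Cd3g) and the kinase Lck. The co-receptors CD4 and CD8 (a pair of Cd8a and Cd8b1 chains) mark helper and killer T cells, and the transcription factor Foxp3 marks regulatory T cells. Granzyme B (Gzmb) is a protease that killer T cells and NK cells release into their targets, and Nkg7 is a membrane protein of their granules. T cells of visceral fat are known to change in number and kind as mice grow obese. A level below is the log2 processed signal of a probe minus the log2 75th percentile of its array, so that 0 is the 75th percentile of the array. In cells taken in bulk, fewer cells of a type and less RNA per cell cannot be told apart.

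The SVC label names infiltrating macrophages, and the mean level of 8 macrophage genes ran from -0.25 to 3.29 over the arrays. Genes of other cells were also measured, with mean levels from -0.86 to 5.4 for 7 adipocyte genes and from -8.34 to 3.17 for 6 epididymis genes. Array brightness, the 75th percentile signal, was lowest on HF5 W12 (25.8 scanner units), where no member was well above background by the probe that stands for it, and reached 1983 on the brightest array. HFC was brighter than LFC at 9 of 10 time points, by 0.66 ± 0.78 log2 (SD, n = 10 time points).

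Each gene was read by probes of 60 bases printed on the array. The 4 probes below are shown as 2 CD3 chains that varied together, the co-receptor that did not join them, and the Cd8a probe least like the others of its gene. Each reads without a stop in at least 1 forward frame. They are given as the array files list them, in lower case with nothing marked:
Cd3d: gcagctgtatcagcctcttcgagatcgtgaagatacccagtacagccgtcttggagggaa
Cd3g: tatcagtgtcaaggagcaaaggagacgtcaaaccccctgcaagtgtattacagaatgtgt
Cd4: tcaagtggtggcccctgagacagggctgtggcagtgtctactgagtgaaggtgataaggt
Cd8a, the probe well above background on 24 arrays: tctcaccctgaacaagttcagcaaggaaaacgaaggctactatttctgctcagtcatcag
Cd3d and Cd3g are related genes, but the longest run of bases that the Cd3d probe shared with a probe of any other member was 6, and for Cd3g it was 8. Over all 13 probes this longest run was at most 10 of 60 bases.

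Cd3d, Cd3g and Cd3e lie side by side on chromosome 9. The starts of Cd3g and Cd3d are 1355 bases apart on opposite strands, and the start of Cd3e is 27825 bases from that of Cd3d. The 250 bases before each start are shown, since these are the members that form 1 complex and lie at 1 locus. They come from RefSeq (GRCm38.p6), 5′ to 3′ on the strand of the gene. Capitals mark matches on either strand to the ETS motif GGAAGT, the GATA motif AGATAA or the E box CAGGTG, and the RUNX motif TGTGGT was also searched:
Cd3g (chr9:44980432-44980681, minus strand): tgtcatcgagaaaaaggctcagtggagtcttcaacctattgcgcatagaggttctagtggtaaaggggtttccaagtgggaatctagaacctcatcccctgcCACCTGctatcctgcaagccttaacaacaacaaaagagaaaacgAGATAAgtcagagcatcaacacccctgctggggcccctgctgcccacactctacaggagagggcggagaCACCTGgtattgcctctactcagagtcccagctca
Cd3d (chr9:44981536-44981785, plus strand): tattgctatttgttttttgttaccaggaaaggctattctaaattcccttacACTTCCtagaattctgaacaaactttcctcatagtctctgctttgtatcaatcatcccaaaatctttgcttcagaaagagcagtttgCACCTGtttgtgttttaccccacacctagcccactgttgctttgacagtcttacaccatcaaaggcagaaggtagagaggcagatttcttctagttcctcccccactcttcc
Cd3e (chr9:45009612-45009861, minus strand): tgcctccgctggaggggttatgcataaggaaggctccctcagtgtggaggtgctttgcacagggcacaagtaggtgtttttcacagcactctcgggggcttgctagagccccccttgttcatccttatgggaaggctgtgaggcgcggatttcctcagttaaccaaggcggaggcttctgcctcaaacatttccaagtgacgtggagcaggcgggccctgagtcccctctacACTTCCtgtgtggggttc
Cd3d and Cd3e each held 1 ETS match, 199 and 18 bases before the start, and Cd3g held none. Cd3g held 2 E box matches and 1 GATA match, and Cd3d held 1 E box match. None of the 3 windows held the RUNX letters, which were found in the windows of Lck, Gzmb (2 matches) and Nkg7. Among all 32851 promoter windows of this length, 19.7% held the ETS letters, 17.2% the E box, 14.0% the RUNX and 9.99% the GATA letters. Windows were found for 8 of the 10 genes, and those of Cd4 and Cd8b1 were not analysed here.

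The levels of the members spread more by time point than by diet. Cd3d, a CD3 chain, ran from -2.56 (HF5 W12) through a median of -0.29 to 3.82 (HFC W6). Its SD over the 38 arrays was 1.64, against a median SD of 0.75 over 24490 probes that reached well above background on a share of 0.5 or more of the arrays, and 7.32% of those probes had an SD as large as that of Cd3d. Lck ran from -3.93 (HF5 W12) to 3.77 (HFC W6). Neither probe was well above background on HF5 W12, so both lowest values are bounds. Time point took up 60.6% of the sum of squares of Cd3d, 66.6% for Lck and 76.3% for Cd8b1. The median probe had 42.5%, and the 95th percentile of the probes was 67.5%, which only Cd8b1 exceeded among the members. Nkg7 (45%), Cd3e (46.9%) and Cd3g (48.5%) lay close to the median probe, and Gzmb (35.9%) lay below it. Diet alone took up between 4.40% (Cd8b1) and 14.2% (Cd4) for the members and 8.40% for the median probe. Foxp3 was well above background on 11 of 38 arrays, so that most of its levels are only bounds, while Cd3d, Lck, Gzmb and Nkg7 were well above background on 37 arrays.

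**Figure D1:**
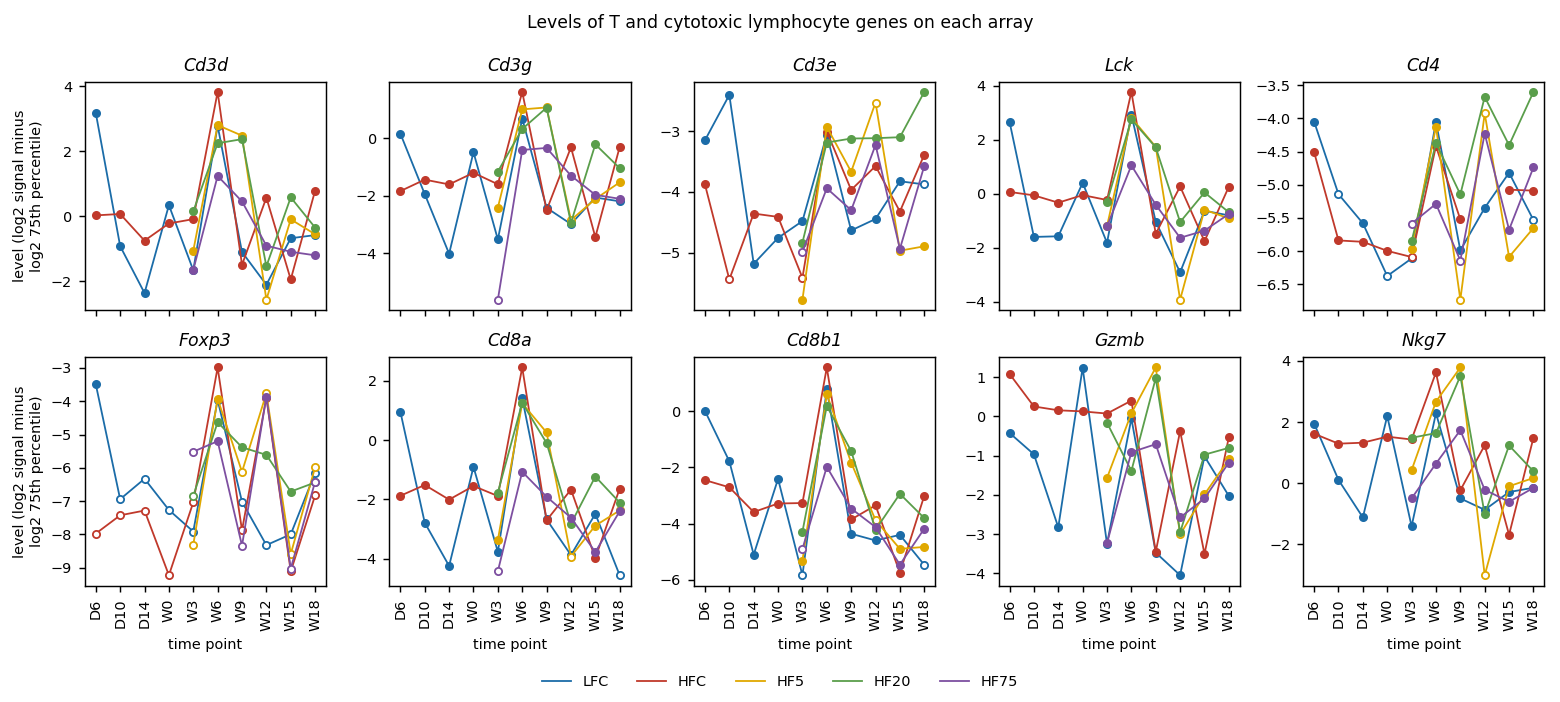
Level of each gene (log2 signal minus the log2 75th percentile of the array, y axis) at each time point (x axis) for the 5 diets. Filled points are well above background and open points are not, and lines join the arrays of a diet. Lck, Cd8a and Cd8b1 are highest at W6 in all 5 diets, and LFC is high at D6.

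Week 6 held the highest level of Lck, Cd8a and Cd8b1 in all 5 diets, and of Cd3d in HFC, HF5 and HF75. At W6, Cd3d stood at 2.78 in LFC, 3.82 in HFC, 2.80 in HF5, 2.24 in HF20 and 1.24 in HF75. Its mean over these 5 arrays was 2.58, against -0.42 over the other 33 arrays, and the 5 held ranks 1 to 8 of 38. Cd8b1, the beta chain of CD8, had the largest such gap, with a mean of 0.23 at W6 and -3.78 at the other time points. Cd8a differed by 3.45, Lck by 3.31 and Cd3g by 2.37 log2. Foxp3 was well above background on all 5 arrays of W6, at -4.63 to -2.99 in 4 diets and -5.20 in HF75. The killer genes followed this less. The W6 mean of Nkg7 was 1.71 log2 above the other time points and that of Gzmb 0.93, and the W6 arrays reached down to ranks 19 and 24 of 38 for these genes. Time points were not tested against each other.

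The array of LFC D6 also carried high T cell levels. Cd3d was at 3.17 there, Lck at 2.67 and Cd8b1 at 0.01, each above every array outside W6. HFC at the same time point was at 0.03 for Cd3d, 0.07 for Lck and -2.45 for Cd8b1. At W9, HF5 and HF20 were high and LFC and HFC low. Gzmb had its highest level at HF5 W9 (1.25), beside 0.98 in HF20, -0.71 in HF75, -3.45 in HFC and -3.47 in LFC. It was nearly as high on LFC W0 (1.24) and HFC D6 (1.09). Nkg7 also had its highest level at HF5 W9 (3.78), beside 3.50 in HF20, 1.73 in HF75, -0.23 in HFC and -0.49 in LFC. The W9 arrays of the 3 doses were scanned on another day than the LFC and HFC arrays of W9, so at this week dose and scan day cannot be told apart.

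Genes of other cells moved with these peaks, and not in the same way. The mean level of 9 B cell genes lay between -0.63 and 0.78 on the 5 arrays of W6 and was -0.97 at LFC D6, and it lay between -6.33 and -2.33 on all other arrays. The mean of 5 lymph node stroma genes lay between 1.64 and 2.35 at W6 and was 2.99 at LFC D6, against -2.49 to 0.86 on all other arrays. The lymph node stroma gene Glycam1 was well above background on 16 of 38 arrays. At W9, HF5 and HF20 had B cell means of -2.77 and -2.64 and lymph node stroma means of -0.82 and -1.39, within the range of the other arrays. There the mean of 17 cytotoxic and NK genes was at its highest, -0.19 in HF5 and -0.03 in HF20, against -2.63 to -0.73 at W6. Other lists were high there too. In HF5 and HF20 at W9, the general leukocyte means were 3.56 and 3.44 and the macrophage means 3.29 and 3.01. The means of 6 partners of Foxp3 in regulatory T cells were 0.31 and 0.30. The medians of these 3 lists over the 33 arrays outside W6 were 1.77, 1.73 and -1.62. The adipocyte mean differed at W9 in the other direction. It was 5.33 in HFC, with LFC at a similar level, against 3.4 in HF5, 2.77 in HF20 and 3.56 in HF75. Its median over the 33 arrays outside W6 was 2.27. The W6 arrays also had low mesothelial means in 4 of 5 diets (-6.97 to -3.47), with -0.77 in LFC. Such low means were not limited to W6, with -6.58 at LFC D6 and -6.29 at LFC D10. The part of these cells in the levels of the T cell genes was not tested.

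**Figure D2:**
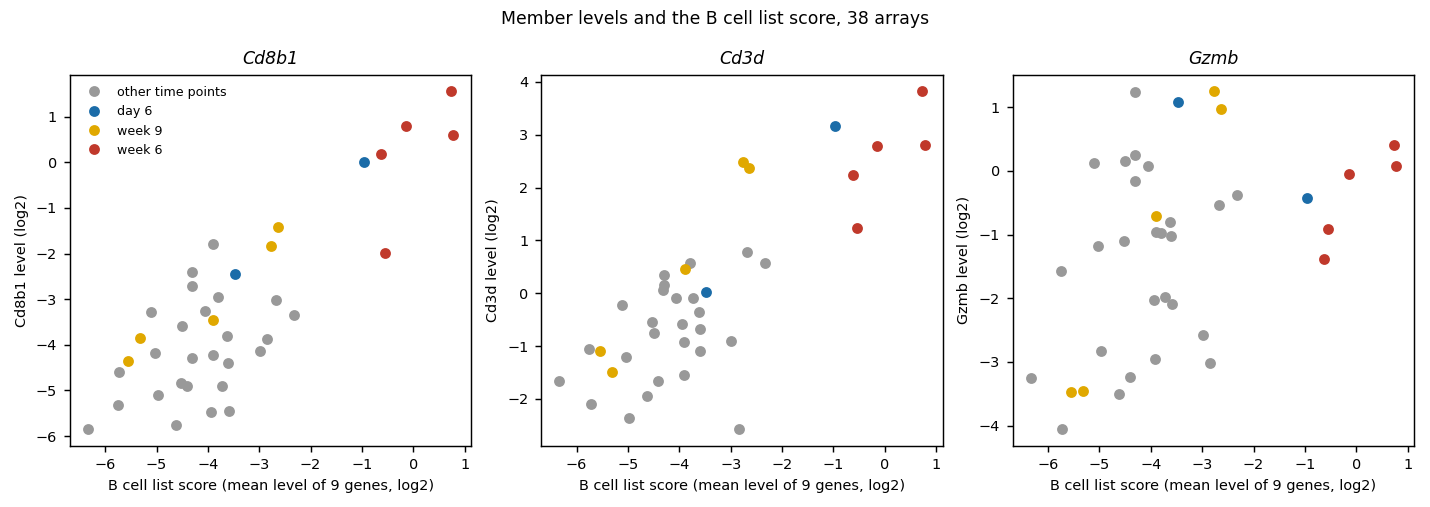
Level of Cd8b1, Cd3d and Gzmb (y axes, log2) against the mean level of 9 B cell genes (x axis, log2), 1 point for each of the 38 arrays. The W6 arrays lie at B cell means from -0.63 to 0.78, and the W9 arrays of HF5 and HF20 reach Gzmb levels of 1.25 and 0.98 at B cell means below -2.60.

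A group of 7 members varied together across the arrays and the Cd4 and Cd3e probes did not join them. Over all 14 pairs of Cd3e or Cd4 with those 7, r ran from -0.08 to 0.54, and without D6 and W6 from -0.43 to 0.41. Foxp3, well above background on 11 arrays, had r from 0.168 (Gzmb) to 0.615 (Cd8b1) with the 7. It had r = 0.58 with Cd3e and 0.60 with Cd4. Among Cd3d, Cd3g, Lck, Cd8a, Cd8b1, Nkg7 and Gzmb, Pearson's r over 38 arrays ran from 0.61 to 0.96 in 21 pairs, with a median of 0.86. Lck and Cd3d were the closest pair (r = 0.96, Spearman's rho = 0.95), and Cd8a followed Cd8b1 with r = 0.93. Gzmb was closest to Nkg7 (r = 0.86). Without D6 and W6 the 21 pairs ran from 0.60 to 0.93, and after the mean of each time point was taken away they ran from 0.66 to 0.94. Cd3e followed Cd4 with r = 0.77 (37 arrays) but Cd3d with r = 0.37 and Lck with r = 0.29, although Cd3e and Cd3d are chains of 1 receptor. Cd4 and Cd3d had r = 0.19, and Cd4 and Nkg7 had r = -0.08. These correlations are descriptions over arrays that share diets, time points and scan days. The Cd3e probe was well above background on 33 arrays and the Cd4 probe on 29, and their levels had medians of -3.91 and -5.35. Array brightness had r = -0.26 with Cd3e, -0.19 with Cd4, -0.37 with Foxp3 and 0.11 with Cd3d. Probes of 1 gene could differ: 2 of the Cd8a probes had r = 0.95 and the third had r = 0.75 and 0.76 with them, and the 2 Nkg7 probes had r = 0.84.

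**Figure D3:**
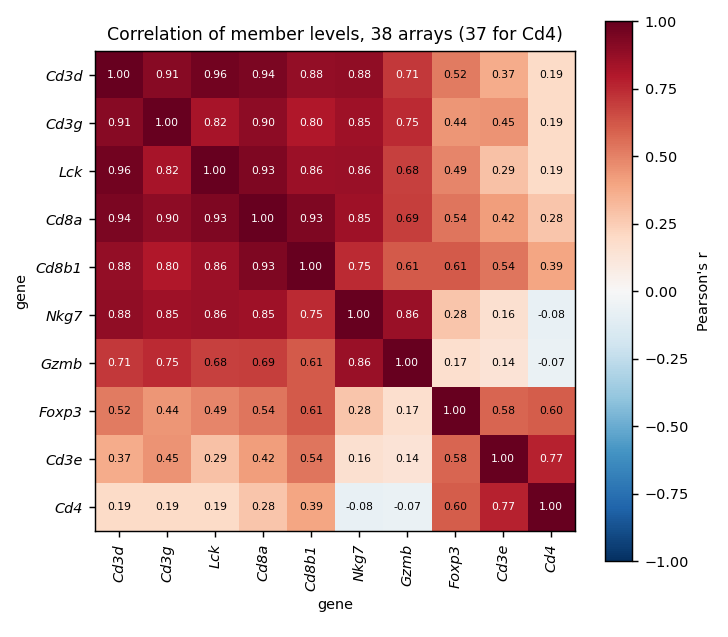
Pearson's r between the levels of each pair of genes over 38 arrays (37 for pairs with Cd4), on a colour scale from -1 to 1. Cd3d, Cd3g, Lck, Cd8a, Cd8b1, Nkg7 and Gzmb form a block from 0.61 to 0.96, and Cd3e and Cd4 stand outside it at 0.77 with each other.

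Before W6, the members varied more in LFC than in HFC. From D6 to W3, Nkg7 in HFC lay between 1.29 and 1.62 (SD 0.136, n = 5 time points), and in LFC between -1.41 and 2.20 (SD 1.68). Lck had an SD of 0.159 in HFC and 1.93 in LFC, and Cd8a of 0.222 and 2.16. The members that varied most in HFC were Foxp3 (SD 0.873), Cd3e (0.695), Cd4 (0.651) and Cd8b1 (0.465), all above the median probe of HFC. The SD was larger in LFC for all 10 members, as it was for 79.2% of all probes, whose median SD was 0.681 in LFC and 0.454 in HFC. D14 and W0 fall on the same elapsed day. In LFC, 8 of 9 members were higher at W0 than at D14, with a median of 2.70 log2 and up to 4.07 for Gzmb, where the median absolute difference of all probes was 0.551. In HFC the same pair of arrays had a median difference of 0.28 over the members, with 0.398 as the median absolute difference of all probes. Foxp3 is left out of these 9.

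The first comparison asked whether the high fat diet changed the levels, HFC minus LFC over the 10 time points. No member passed the threshold (an adjusted p under 0.05), and neither did any of the 31203 probes tested. The estimate was above 0 for 7 of the 9 members tested, with a median of 0.48 log2, where the median of all probes was 0.01 and 50.7% of them were above 0. A single member, Nkg7, had an unadjusted p under 0.05, where 9.05% of all probes did. Foxp3 did not pass the filter on dim probes in this fit, since it was well above background on 2 of 10 arrays in each diet.

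Nkg7, the granule protein, was the member with the smallest p. Its level ran from -1.41 (W3) through a median of -0.22 to 2.29 (W6) in LFC and from -1.68 (W15) through 1.38 to 3.62 (W6) in HFC. The diets overlapped, with HFC higher at 7 of 10 time points. HFC minus LFC was 0.94 ± 0.41 log2 (SE), or 1.92-fold, with an unadjusted p of 0.0413 and an adjusted p of 0.547 in limma. Its second probe had 1.22 ± 0.51 (SE). An exact sign-flip test (two-sided) on the 10 differences gave p = 0.0703, where 0.00195 is the smallest p it allows. Gzmb ran from -4.05 through -1.52 to 1.24 in LFC and from -3.51 through 0.10 to 1.09 in HFC, and was higher in HFC at 8 of 10 time points. Its difference was 1.11 ± 0.56 log2 (SE), or 2.16-fold, with an unadjusted p of 0.072. The difference of Gzmb ranged from -2.49 at W15 to 3.67 at W12, so its spread over time points (SD 1.97) exceeded its mean.

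The CD3 chains and Lck overlapped between the diets as well. Cd3d ran from -2.36 through -0.80 to 3.17 in LFC and from -1.94 through -0.03 to 3.82 in HFC. Its difference of 0.39 ± 0.49 log2 (SE) took in -3.14 at D6 and 2.68 at W12. Cd3g had a difference of 0.61 ± 0.47 and Lck of 0.48 ± 0.47 log2 (SE), each above 0 at 6 of 10 time points. Cd3e had -0.19 ± 0.35 (SE), with -3.04 at D10, where the HFC array was not well above background, and 0.12 without D10. The co-receptors did not pass either. Cd8a had 0.66 ± 0.53, Cd8b1 had 0.35 ± 0.48 and Cd4 had -0.08 ± 0.17 log2 (SE). Cd4 is given over 9 time points, since its spot on HFC W12 was marked as an outlier and left out.

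At some time points nearly all members lay on the same side of 0, and at others they did not. At D14 8 of 9 members were higher in HFC, with a median of 1.61 log2, and 46.8% of all probes were. At W3 8 of 9 were higher with a median of 1.88, and at W18 all 9 with a median of 1.5. Of all probes, 49.6% were higher at W3 and 46.6% at W18. At W12 all 8 members measured were higher, with a median of 2.44, and 54.5% of all probes were. At D6 8 of 9 were lower with a median of -2.0, and at W15 all 9 were lower with a median of -1.35. All probes leaned to the same side there, with 44.4% higher at D6 and 43.8% at W15. At W6 8 of 9 were higher with a median of 0.84, and at W0 2 of 9 were with a median of -0.65. Of all probes, 55.3% were higher at W6 and 48.3% at W0. The members split at W9, with 5 of 9 higher and a median of 0.02, and at D10, with 6 of 9 higher and a median of 0.99. The shares of all probes were 47.7% at W9 and 44.7% at D10. At every time point both diets were scanned on the same day. They shared a slide at D6, D10, W12, W15 and W18, and over these 5 time points alone Nkg7 had 0.64 and Gzmb 1.08 log2. Without W6 and D6, where the T cell genes were high, Nkg7 had 1.05 and Gzmb 1.14 log2. The median over the members was 0.83 without D6 and 0.25 without W12.

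**Figure D4:**
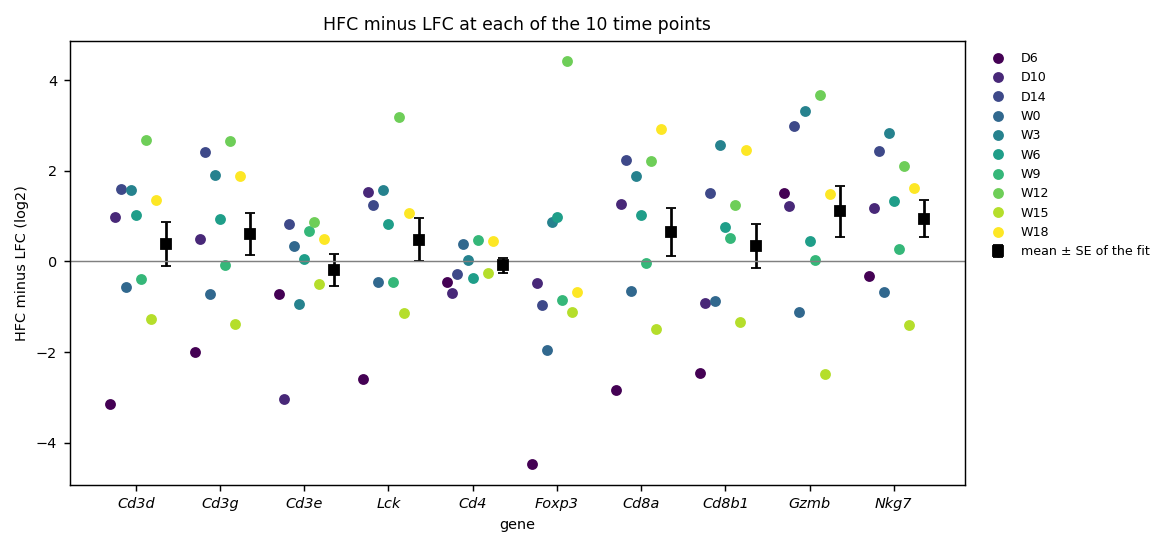
HFC minus LFC (log2, y axis) for each gene (x axis), with 1 coloured point for each of the 10 time points (9 for Cd4). Black squares are the mean and its SE from the fit across all probes, which left out Foxp3. Points of each gene lie on both sides of 0, and those of D6 and W15 lie below 0 for Cd3d, Cd3g, Lck, Cd8a and Cd8b1.

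The next comparison asked whether HFC minus LFC changed with time on diet. No member passed the threshold and none had an unadjusted p under 0.05, where 4.36% of the 31203 probes did. The estimates lay between -0.05 (Gzmb) and 0.09 log2 per week (Cd8b1), and that of the smallest p was Cd3e, 0.07 ± 0.05 log2 per week (SE), with an unadjusted p of 0.215 and an adjusted p of 0.981 in limma.

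The slope on elapsed day over all 38 arrays asked whether levels drifted with age and feeding time in all diets. No member passed, while 35 of 33736 probes, or 0.104%, did. An unadjusted p under 0.05 was found for 5.9% of the probes and for no member. The slope was below 0 for 8 of 10 members, with a median of -0.05 log2 per week, and above 0 for 53.9% of all probes. These 10 include Foxp3, which passed the filter on dim probes only through HF20. Gzmb had the smallest p, with -0.10 ± 0.05 log2 per week (SE, unadjusted p = 0.0633, adjusted p = 0.873 in limma). Cd8b1 had the same slope of -0.10 ± 0.05 (unadjusted p = 0.0655), and the slopes above 0 were those of Cd3e and Cd4 (both 0.03).

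The KAL-1 comparisons asked whether a dose changed the levels from those of HFC over W3 to W18. No member passed the threshold at any dose or in the mean of the doses, and no probe of 33780 did. No member had an unadjusted p under 0.05 either, where 4.72% of probes did for HF5, 1.54% for HF20, 1.96% for HF75 and 1.73% for the mean of the doses. These 4 comparisons share the HFC arrays. By the probe that stands for each, all 10 members were below 0 in HF75, with a median of -0.81 log2. All 10 were above 0 in HF20, with a median of 0.35. For HF5, 8 of 10 were below 0 with a median of -0.23, and for the mean of the doses 7 of 10 with a median of -0.18. Of all probes, 54.1% were above 0 in HF75, 56.2% in HF20, 47.3% in HF5 and 51.9% in the mean of the doses. Foxp3 entered these counts only through HF20, where it was well above background on 4 of 6 arrays. It was so on 1 of 6 in HF5, 2 of 6 in HF75 and 2 of 10 in HFC and in LFC. Most of its levels are thus bounds. Many members vary together, so they are not 10 separate signs.

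In HF75 the smallest p was that of Cd8b1. Cd8b1 ran from -5.46 through -4.15 to -1.98 in HF75, and from -5.75 through -3.28 to 1.55 over the 10 arrays of HFC. The difference over the 6 shared weeks was -1.07 ± 0.54 log2 (SE), with an unadjusted p of 0.0589 and an adjusted p of 1 in limma. It ranged from -3.53 at W6 to 0.39 at W9 and was below 0 at 4 of 6 weeks. Cd8a, its partner chain, had -1.13 log2 by the probe that stands for it, from -3.52 at W6 to 0.80 at W9. Its other probes had -0.55 and 0.03 log2, so the size of the Cd8a difference depended on the probe. In HF20 the smallest p was that of Cd3e, 0.66 ± 0.36 log2 (SE, unadjusted p = 0.0804), which was above 0 at 5 of 6 weeks. Cd4 in HF20 was above HFC at all 5 weeks measured in both, by 0.56 log2 on average, and the exact sign-flip test gave p = 0.0625, the smallest p that 5 weeks allow. At W15 and W18 the diet labels of HF5 and HF20 name the other dose, so results of these doses rest on the source name. There the HF20 arrays differed from HFC by 0.67 and 1.49 log2 for Cd4 and by 1.22 and 1.03 for Cd3e. The HF5 arrays differed by -1.01 and -0.56 for Cd4 and by -0.64 and -1.51 for Cd3e. In HF5 the smallest p was that of Cd4 (-0.34 ± 0.34 log2, SE, unadjusted p = 0.328 in limma), whose fit lacks HFC W12. In the mean of the doses it was Cd8b1, at -0.43 ± 0.44 log2 (SE, unadjusted p = 0.34 in limma).

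At each dose the median of the members lay highest above HFC at W9. At W9 the median of 9 members was 3.22 log2 above HFC in HF5, 3.21 in HF20 and 1.08 in HF75. In HF20 it was also high at W15 (2.53), and in HF75 it lay further from 0 at W6 (-2.58) than at W9. Without W9 the median was -0.83 in HF5, -0.22 in HF20 and -1.30 in HF75, so that the direction of HF20 turned. No member passed the threshold without W9. The HFC array of W9 had a higher adipocyte mean than each dose array of W9, and the part of fat cells in these differences was not tested. HF20 also turned without W15 (-0.07), and HF5 turned without W12 (0.22) and with normexp background (0.31). Without W6 the median of HF75 was -0.42. With scan day in place of time point as the block they were -0.60, -0.12 and -1.15. HF5 shared its scan day with HFC at 5 of 6 weeks, all but W9, and there all 9 members averaged below HFC, with a median of -0.90. Of all probes, 38.4% (W18) to 49.2% (W15) were above HFC at these weeks. The weeks include W12, with a member median of -2.58, where HF5 is the dimmest array of the series. No member was well above background on that array by the probe that stands for it. HF20 shared its scan day with HFC at 3 weeks, with 4 of 9 members above 0 and 51.2% to 54.3% of all probes. HF75 shared it at 2 weeks, with 1 of 9 above 0 and 48.9% to 51.4% of all probes.

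**Figure D5:**
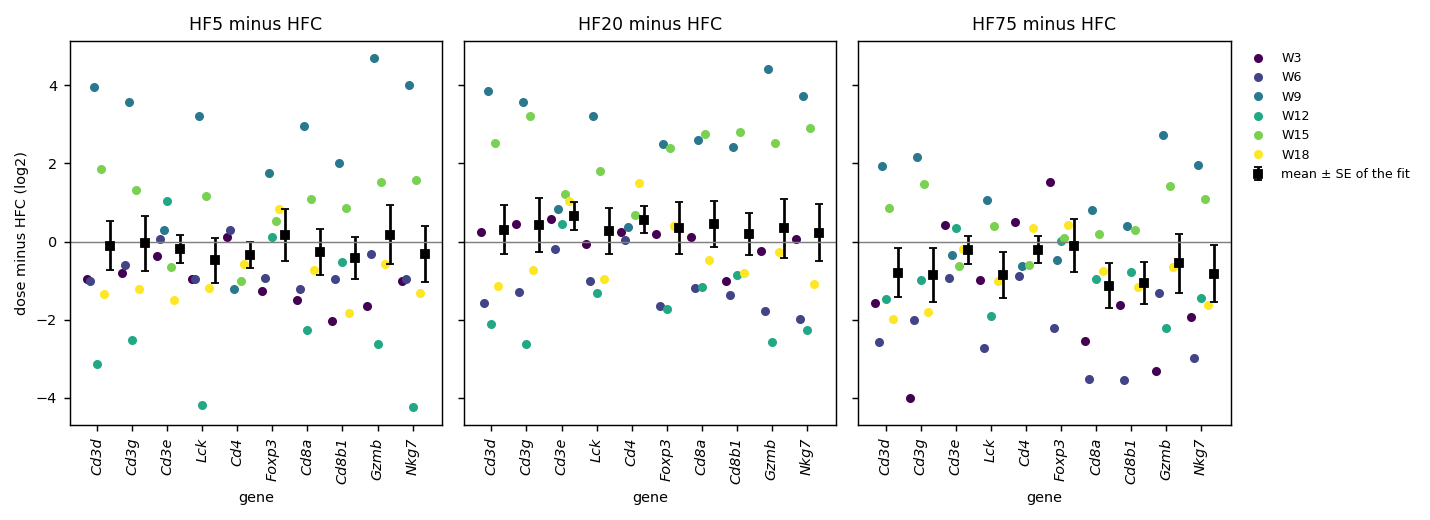
Dose minus HFC (log2, y axis) for each gene (x axis) at HF5, HF20 and HF75, with 1 coloured point for each of the 6 weeks (5 for Cd4) and a black square for the mean and SE of the fit. W9 is the highest point of Cd3d, Cd3g, Lck, Gzmb and Nkg7 at each dose, and the squares of HF75 lie below 0 for all 10 genes.

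A set of 4 differences between members asked whether the makeup of the lymphocytes shifted, and none passed (sign-flip tests, exact and two-sided, adjusted over the 8 that were run). Nkg7 minus Cd3e was 1.13 ± 1.78 log2 higher in HFC than in LFC (SD, n = 10 time points, higher at 7 of 10), with an exact p of 0.0703 and an adjusted p of 0.562. Foxp3 minus Cd4 was -0.88 ± 1.64 (SD, n = 9, exact p = 0.152), and most of its Foxp3 values were not well above background. Cd8a minus Cd4 differed by 0.57 ± 1.85 (SD, n = 9, exact p = 0.375) and Gzmb minus Cd8a by 0.45 ± 1.67 (SD, n = 10, exact p = 0.471). With the doses averaged and set against HFC, the 4 differences lay between -0.39 and 0.32 log2, with exact p from 0.5 to 0.938. With 6 weeks the smallest p is 0.0312, and with the 5 weeks of Cd4 it is 0.0625.

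Other genes of the pathway were read from fixed lists. Of 19 T cell receptor signalling genes, such as Zap70, Lat and Cd28, 0 passed in HFC minus LFC and 0 had an unadjusted p under 0.05, while all 19 were above 0, with a median of 0.50 log2. Among all 31203 probes tested, 9.05% had an unadjusted p under 0.05, on either side of 0, and 50.7% were above 0. Of 17 cytotoxic and NK genes, 0 passed, 7 had an unadjusted p under 0.05 and an estimate above 0, and the median was 0.89 log2. The smallest p of these was that of the NK receptor Klrc1, at 1.36 ± 0.48 log2 (SE, unadjusted p = 0.0153, adjusted p = 0.547 in limma). Interferon gamma (Ifng) had 1.40 ± 0.54 and the NK receptor Ncr1 0.89 ± 0.35 log2 (SE). Of 11 T lineage transcription factors 9 were above 0 (median 0.33), of 6 partners of Foxp3 in regulatory T cells 3 were (median 0.01), and of 8 lymphocyte homing genes 7 were (median 0.54), each with 0 at an unadjusted p under 0.05. Beside these, all 8 macrophage genes were above 0 with a median of 0.64 log2, and 3 of them had an unadjusted p under 0.05. All 8 B cell genes tested were above 0, with a median of 0.34, and of 4 lymph node stroma genes tested 2 were above 0 and 2 had an unadjusted p under 0.05 and an estimate below 0. Other markers also differed in their estimates: all 5 general leukocyte genes (median 0.75), all 5 mesothelial genes (median 1.81) and all 6 epididymis genes (median 2.56) were above 0, while 0 of 5 endothelial genes (median -0.63) and 1 of 7 adipocyte genes (median -0.59) were. The part of these cells in the differences of the members was not tested.

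For the mean of the doses, 0 genes of these 5 T cell and NK lists had an unadjusted p under 0.05 (1.73% of all probes). The list medians lay between -0.34 and 0.04 log2. For the slope over time, 5.9% of all probes had an unadjusted p under 0.05, on either side of 0. In this slope, 3 of the 17 cytotoxic and NK genes had an unadjusted p under 0.05 and a slope below 0, led by granzyme A (Gzma) at -0.15 ± 0.05 log2 per week (SE, unadjusted p = 0.00351, adjusted p = 0.413 in limma). Of 6 regulatory T cell partners, 2 had an unadjusted p under 0.05 and a slope above 0, Il1rl1, the IL-33 receptor, at 0.11 and Il2ra, the IL-2 receptor alpha chain, at 0.09 log2 per week.

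The genes whose levels were most like the mean level of Cd3e, Cd3d and Cd3g were sought among 21032 gene names that reached well above background on a share of 0.5 or more of the 38 arrays. The closest was the T cell surface protein Cd2 (r = 0.955). Among the 10 closest, between r = 0.93 and 0.955, were also Cd6, Tcrb-V13, Plcb2, Icos, Sh2d1a, Pglyrp2, Cd28, A430107D22Rik and a transcript named only by its identifier. Cd2, Cd6, Icos, Sh2d1a and Cd28 were on the list of T cell receptor signalling genes. The mean of that list followed the mean of the CD3 genes with r = 0.97 over 38 arrays, and with r from 0.968 to 0.995 within the 5 diets. The B cell mean had r = 0.83, the macrophage mean 0.47 and the adipocyte mean -0.16. These are correlations across arrays that share time points and scan days, and they are given as descriptions.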

How the data were processed

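RNA of epididymal SVCs was hybridised to 38 one-colour Agilent arrays. Per the file headers, the deposited scanner files hold intensity values: the authors' Feature Extraction run gave a processed signal after background subtraction within the array, with no normalisation between arrays, beside the mean foreground and median background intensity. The submitters' processing notes name Agilent Feature Extraction 9.1. A deposited series table holds the authors' log2 ratios to LFC, which were not used.

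Spots marked as outliers were left out, spots of a probe were averaged, and log2 signals were shifted by the 75th percentile of each array. A gene with several probes is shown by that of highest mean level. A probe was tested if, in any 1 diet of the comparison, a share of 0.5 or more of the arrays had it well above background. Tests used limma 3.58.1 (R 4.3.3), were two-sided, and p-values were adjusted by Benjamini-Hochberg across every probe tested, with 0.05 as the threshold. Time point was a block in the comparisons of diets, since LFC, HFC and dose arrays carry the same time labels, and a random block in the slope (consensus correlation 0.273). Alternatives changed the scaling, background, filter, block and arrays used. The scripts were tested on simulated data. In each comparison the members with an unadjusted p under 0.05, or else that of smallest p, are given in full, with up to 3 examples of smallest p from a list and the 10 genes most like the CD3 mean; values of other members stand beside them. The members, gene lists and tests were chosen with earlier results of these data known. The series text speaks of 3 biological replicates, while 1 array for each diet and time point was analysed here. The number of arrays limits the precision, and p-values measure only the spread between these arrays. The diet label of the W15 and W18 arrays of HF5 and HF20 names the other dose, and the source name was followed. Weeks were counted from day 14.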

Additional observations from a re-analysis of the deposited data

Results flagged for a closer look

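An array that stood apart from the others of its diet was looked for in the levels of the 10 genes in the 5 diets, 50 groups in all, of which chance would mark about 1 in 20, or 2.5. There were 6. The HFC array of W6 stood apart for 4 T cell genes at once. Cd3d was at 3.82 there and at most 0.79 on the other HFC arrays, Lck at 3.77 against 0.27, Cd8a at 2.45 against -1.51 and Cd8b1 at 1.55 against -2.45. The 4 levels come from 1 array and vary together, so they are not 4 separate signs. The W3 array of HF75, the next dimmest of the series at 88.4 scanner units, stood apart for Cd3g, at -5.61 against -2.10 for the next lowest, and the probe was not well above background there. The W3 array of HF20 stood apart for Cd3e, at -4.83 against -3.19.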

How the results depend on the processing

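The count of members past the threshold was 0 in every fit and under each alternative that could give a value. The medians over the members moved by no more than the spread between time points (for the slopes, the median SE). With normexp background the median turned from below to above 0 in HF5 (0.31) and in the mean of the doses (0.12). When only probes well above background on every array were kept, no member was left in the dose comparisons or the slope. HFC minus LFC of Nkg7 stayed between 0.64 and 1.20 log2 and that of Gzmb between 0.82 and 1.51 (adjusted p from 0.409 to 0.918). The unadjusted p of Nkg7 ran from 0.00886 without W15 to 0.283 over the time points with a shared slide, an alternative chosen after the data had been seen, as was leaving out week 6. Without a paired design, that is with no block for time point, Nkg7 had an unadjusted p of 0.123 and Gzmb of 0.126, and no call changed. The methods' t-test called 0 members, also before adjustment. The number of all probes past the threshold in the slope over time, 35, was not stable: it was 55 with quantile scaling, 0 with normexp background, 16 with scan day as the random block, 316 with no random block, 0 without days 6 and 10 or without weeks 9 and 12, and between 1 (without W15) and 70 (without W3) when 1 time point was left out.

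Small differences changed sign. Cd8b1 in HFC minus LFC turned to -0.35 with normexp background and to -0.21 over the time points with a shared slide. Cd4 turned to 0.21 with outlier spots kept, 0.22 with array brightness as a covariate, 0.058 without days 6 and 10, and 0.011 without week 6 and day 6. Cd3e turned to 0.34 with array brightness, 0.23 without days 6 and 10. Leaving out 1 time point moved Cd3e between -0.313 and 0.121 (without D10). In the mean of the doses minus HFC, with normexp background, Cd8a minus Cd4 turned to 0.11, Foxp3 minus Cd4 to -0.0090 and Gzmb minus Cd8a to -0.016. Cd8a minus Cd4 was 0.082 with the mean of all probes, and Foxp3 minus Cd4 was -0.030 without weeks 9 and 12. Leaving out 1 week moved Cd8a minus Cd4 between -0.702 and 0.400, Foxp3 minus Cd4 between -0.030 and 0.762, and Nkg7 minus Cd3e between -1.06 and 0.182 (positive without W12). The causes were not tested. Low signal limits Foxp3, Cd4 and Cd3e most.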
